A study of Mus musculus with 12 samples.

Results

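Sstr4 encodes somatostatin receptor 4, and the array read it with 1 probe set (Entrez gene 20608) of 11868 that are not array controls. It is 1 of 5928 genes with a probe set of their own, and it passed the filter on low values on all 12 arrays (log2 of at least 4 on at least 3 arrays, met by 3541 probe sets). It was taken as every probe set to which the platform annotation gives the symbol Sstr4. The gene was chosen by measured values of these same 12 arrays, and the sources do not say which comparison they came from. Its levels and differences are therefore given as a description with standard errors and with no p.

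Hippocampal RNA was hybridised to 12 Affymetrix arrays (array C of the mouse U74 set), 3 in each of 4 groups. The groups are mutant mice given kainate, control mice given kainate, mutant mice given saline and control mice given saline. The mutants lack CREB and CREM, per the series title. The sources used here give neither the alleles, nor a Cre driver, nor the exact genotype of the controls. All mice were littermates of both sexes, 5 to 6 weeks old, housed singly and handled for 5 days. Kainate was injected into the peritoneum at 20 mg/kg, and the mice were killed 1 hour after the injection. Each array carries RNA pooled from 3 animals, so the errors describe pools and not single mice.

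Somatostatin is a peptide released by a class of GABAergic interneurons, and its receptors act through inhibitory G proteins. In principal neurons they lower cyclic AMP, open potassium channels and hold back calcium entry. Receptor 4 is abundant in the mouse hippocampus, where its activation is known to enhance the M-current of KCNQ channels and to dampen seizures. Kainate, an agonist of glutamate receptors, provokes such seizures. CREB and CREM are transcription factors that bind the cyclic AMP response element, TGACGTCA, and the somatostatin gene Sst is the textbook carrier of that element.

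The Sstr4 gene lies on chromosome 2 at chr2:148395377-148396764, on the plus strand of GRCm38.p6. The 250 bases before its start, chr2:148395127-148395376, are shown because the mutants lack the factors that bind the element. The sequence is RefSeq's, read 5′ to 3′, with CG dinucleotides in capitals.
Sstr4 upstream: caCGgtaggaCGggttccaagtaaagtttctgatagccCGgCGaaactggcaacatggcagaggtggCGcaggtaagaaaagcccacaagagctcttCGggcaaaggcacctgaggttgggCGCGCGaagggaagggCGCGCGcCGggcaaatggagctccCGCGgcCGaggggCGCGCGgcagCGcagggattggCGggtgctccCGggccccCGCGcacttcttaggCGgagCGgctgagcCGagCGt
For comparison, 30 bases of the Sst promoter (GRCm38.p6, minus strand, chr16:23890874-23890903) hold the element, here in capitals, at 48 to 41 bases before the start.
Sst element: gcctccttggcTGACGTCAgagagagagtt

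The Sstr4 stretch holds no TGACGTCA, a motif that reads the same on both strands, and no core TGACG on either strand. Of 32851 RefSeq promoters of the same length, 1.55% hold the full motif and 17.8% the core, which includes every full match. The stretch is rich in CG, with 28 CG dinucleotides against a median of 6 over all promoters. A G or C stands at 67.2% of its bases, against a median of 52.4%. As many CG dinucleotides or more are found in 7.61% of promoters. These counts describe letters in this window, and binding was not measured.

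Some arrays stood apart, and the doubt about control kainate replicate 3 rests on probe sets picked by a genotype difference. Mutant kainate replicate 3 was the most distant array along the leading axis of a principal component analysis of the tested probe sets (53.2% of their variance) and had a narrower range of values, with an SD of 1.52 against 1.71 to 1.78 elsewhere. On the second axis (22.9%) replicate 1 had the highest score in each of the 4 groups, and the split of replicate 1 from replicates 2 and 3 is treated as a batch seen in the data. The split was not clean. Replicate 1 arrays scored 0.28 to 0.37 there and mutant kainate replicate 3 scored 0.23. The other arrays of replicates 2 and 3 scored -0.39 to 0.01. The array labelled control kainate replicate 3 resembled mutants. Of 71 probe sets other than Sstr4 whose saline arrays parted the genotypes by at least 0.5 (log2) without overlap, it lay nearer to the mutant saline mean on 45. Counts on the other control kainate arrays were 9 and 21, and on the mutant kainate arrays 34, 61 and 60 in order of replicate. By this count mutant kainate replicate 1, at 34, was less like the mutants than control kainate replicate 3. It was not set among the doubted arrays and stays in the fits that leave those out. Both doubted arrays enter as labelled, and values without them follow beside the results. Array medians ran from 3.26 to 3.41 (log2).

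After saline, Sstr4 was lower in mutants on every array. It read 7.63, 7.48 and 7.79 (log2 signal) on the mutant saline arrays, against 8.48, 8.61 and 8.42 on the control saline arrays. The groups did not overlap. The means were 7.63 ± 0.15 in mutant saline and 8.50 ± 0.10 in control saline (SD, n = 3 arrays each). The mutant minus control difference was -0.87 ± 0.29 (standard error of the limma fit over all 12 arrays, with the spread pooled over the 4 groups). With only the saline arrays in the fit the standard error was 0.099. The signal was 1.83-fold lower in mutants. A difference this low or lower was seen on 19 of 3541 probe sets tested, Sstr4 included, against 262 for its difference after kainate and 45 for the average; these ranks describe a gene chosen by its values. All 3 mutant arrays lay below all 3 controls on 181 probe sets, 5.11% of those tested, so the lack of overlap by itself is common on these arrays.

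After kainate, the same gap was seen on all but 1 of the arrays. Sstr4 read 7.58, 7.50 and 7.11 on the mutant kainate arrays, against 8.66, 8.46 and 7.39 on the control kainate arrays. The third control value came from the doubted control array and fell below mutant kainate replicates 1 and 2, so the groups overlapped. Mutant kainate arrays averaged 7.40 ± 0.26 and control kainate arrays 8.17 ± 0.68 (SD, n = 3 each). The difference was -0.77 ± 0.29, a signal 1.71-fold lower in mutants. Without control kainate replicate 3 it was -1.16 ± 0.16, and with mutant kainate replicate 3 also left out it was -1.02 ± 0.12.

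**Figure D1:**
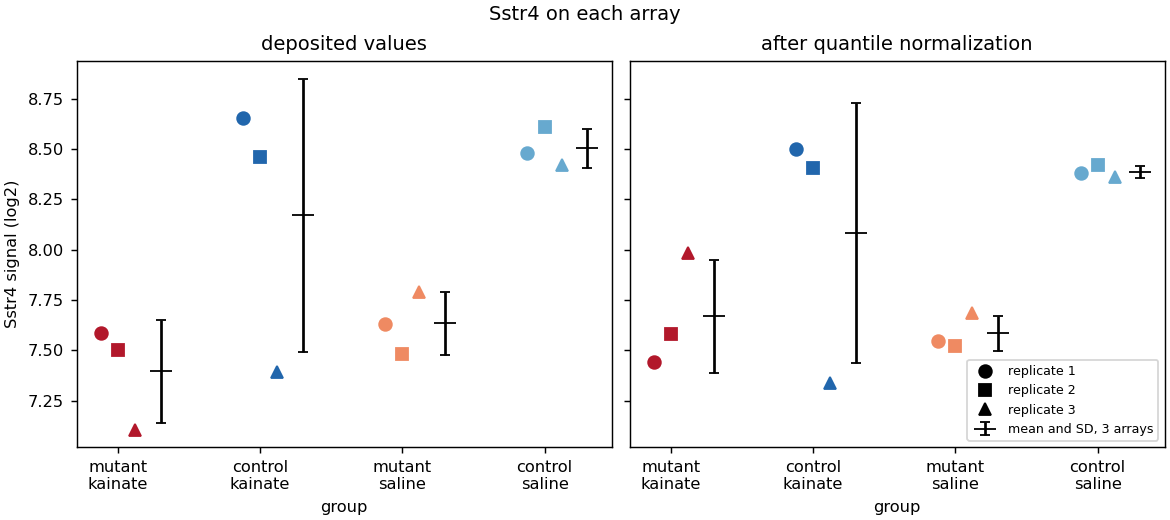
Sstr4 signal (log2, y axis) on each of the 12 arrays by group (x axis), as deposited (left) and after quantile normalization (right); markers give the replicate, and bars the mean and SD of 3 arrays. Control kainate replicate 3 reads 7.39 among control arrays at 8.42 to 8.66, and mutant kainate replicate 3 is the array that quantile normalization moves most, to 7.98 against 7.11 as deposited.

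Averaged over saline and kainate, the mutant minus control difference was -0.82 ± 0.20, or 1.77-fold lower in mutants. It was -0.96 within replicate 1 arrays and -0.75 within replicates 2 and 3. A reduced fit, with both doubted arrays left out and a batch term, gave -0.94 ± 0.08, or 1.92-fold lower. Control kainate replicate 3 was doubted because it went against its label on probe sets that part the genotypes, so leaving it out depends on the outcome. Genotype differences and errors of the reduced fit are therefore given as a description, with no p. All 6 mutant arrays lay below all 3 control saline arrays and below 5 of the 6 control arrays. The exception was the array labelled control kainate replicate 3, on which Sstr4 read lower than on 5 of the 6 mutant arrays. How many of the tested probe sets part the arrays in this way was not counted, so nothing is read from it.

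The limma fit called no probe set between the genotypes with all arrays. The share called at an adjusted p under 0.05 was 0.0% after saline (428 probe sets at an unadjusted p under 0.05), 0.0% after kainate (167) and 0.0% on the average (677). Without both doubted arrays and with the batch term it was 0.169% after saline (6 probe sets), 0.113% after kainate (4) and 0.819% on the average (29). These counts are background over all probe sets. Sstr4 is given no call of its own, since the gene was chosen by such values.

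Kainate left Sstr4 near its saline level on most arrays within 1 hour. In control mice the replicates 1 and 2 after kainate, at 8.66 and 8.46, lay around the saline range of 8.42 to 8.61. The kainate minus saline difference in control mice was -0.33 ± 0.29 with all arrays and 0.05 ± 0.16 without control kainate replicate 3, so its sign rested on that array. It was 0.17 within replicate 1 arrays and -0.59 within replicates 2 and 3. In mutant mice the difference was -0.24 ± 0.29, with -0.05 within replicate 1 arrays and -0.33 within replicates 2 and 3. Without mutant kainate replicate 3 it was -0.09 ± 0.32.

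Averaged over genotypes, kainate minus saline was -0.29 ± 0.20 for Sstr4. Without both doubted arrays and with the batch term it was -0.03 ± 0.08. The interaction, the kainate effect in mutant minus that in control mice, was 0.10 ± 0.40 with all arrays and -0.14 ± 0.16 in that reduced fit. Over all probe sets 0.0282% (1 probe set) were called for kainate in control mice, 0.0282% (1) in mutant mice, 0.141% (5) on the average and 0.0% for the interaction (31 at an unadjusted p under 0.05). For kainate, too, Sstr4 is given no call of its own.

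**Figure D2:**
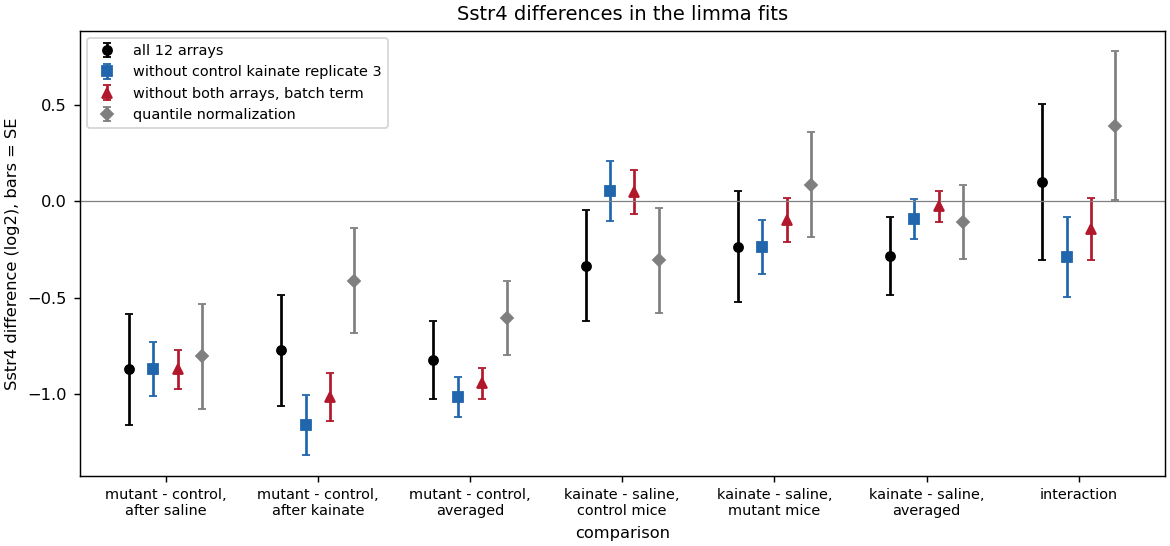
Sstr4 difference (log2, y axis; bars are standard errors) in each of the 7 comparisons (x axis) with all arrays, without control kainate replicate 3, without both doubted arrays with the batch term, and after quantile normalization. The genotype differences lie below 0 in all 4 settings, from -0.41 to -1.16, while the kainate differences lie between -0.33 and 0.09.

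The 4 group means ranked from mutant kainate (7.40) and mutant saline (7.63) up to control kainate (8.17) and control saline (8.50). Neighbours in this order overlapped on single arrays. Without both doubted arrays the order within genotypes closed up, to 7.54 ± 0.06 in mutant kainate (n = 2) and 7.63 ± 0.15 in mutant saline (n = 3). Control kainate then averaged 8.56 ± 0.14 (n = 2) and control saline 8.50 ± 0.10 (n = 3). On this reduced set every mutant array lay below every control array, with the mutants from 7.48 to 7.79 and the controls from 8.42 to 8.66. The set leaves out the control array that overlapped, and the share of probe sets parted likewise was not counted.

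Another scaling of the arrays changed the kainate values of Sstr4 more than the saline ones. After quantile normalization mutant kainate replicate 3 read 7.98 for Sstr4, against 7.11 as deposited. The genotype difference then was -0.80 ± 0.27 after saline and -0.41 ± 0.27 after kainate. Kainate minus saline in mutants turned to 0.09 ± 0.27, and the interaction became 0.39 ± 0.38.

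The rest of the somatostatin system was hardly covered. Of the 7 peptide and receptor genes on that list, Sst, Cort, Sstr1, Sstr2, Sstr3, Sstr4 and Sstr5, only Sstr4 and Sstr5 had a probe set. Sstr5, another inhibitory receptor of the family, read 2.84 to 3.08 over the 12 arrays, under the dim level of 4, and was not tested. Neither the peptide nor the other receptors could be set beside Sstr4. Of the 5 nearest protein-coding genes on each side of Sstr4, Nkx2-4 (3.41 to 3.64) and Nxt1 (3.15 to 3.32) had a probe set, and both were under the filter.

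Lefty1, a secreted antagonist of Nodal signalling on the list of CA1 pyramidal cell markers, was among the genes most like Sstr4 across arrays. Likeness was measured by Pearson's r over the 12 arrays among 2712 other probe sets with 1 gene symbol, as a description. The arrays share 2 sets of levels, mutant and control, and the doubted arrays, all of which enter r. The highest values were 0.976 for Gm2115, 0.964 for Lefty1, 0.957 for Smim19, 0.953 for Anks1b, 0.931 for Kctd4 and 0.919 for Ankrd63. Spearman's rho for the 6 ran from 0.909 to 0.958. Without the 2 arrays farthest from the Sstr4 median r ran from 0.887 to 0.972. On deviations from the group means r was 0.803 to 0.942 with all 12 arrays, and 5 of the 6 were again among the highest 6. Without both doubted arrays r on these deviations was 0.386 to 0.717, and none of the 6 was then among the highest 6.

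Each of the 6 had control kainate replicate 3 at the level of mutant arrays. Gm2115, whose function is not annotated here, read 7.21, 6.93 and 6.77 in mutant kainate, against 8.83, 8.29 and 6.91 in control kainate. It read 7.31, 6.83 and 7.16 in mutant saline, against 8.54, 8.36 and 8.34 in control saline. Apart from control kainate replicate 3, every mutant value of Gm2115 lay under every control value, an order whose share over all probe sets was not counted. Its averaged mutant minus control difference was -1.18 ± 0.28 (limma adjusted p = 0.247), and -1.40 ± 0.08 in the reduced fit. A dim probe set of Gm2115 stayed at 3.57 to 3.74.

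Lefty1 read 6.54, 6.32 and 5.63 in mutant kainate, against 8.20, 7.76 and 6.48 in control kainate. Its saline values were 7.27, 6.61 and 6.94 in mutants, against 8.10, 8.61 and 8.15 in controls. The averaged difference was -1.33 ± 0.30 (limma adjusted p = 0.247), and -1.45 ± 0.16 in the reduced fit. The suffix of this probe set (f_at) marks probes shared by related sequences, so Lefty1 and a close relative cannot be told apart. A second Lefty1 probe set was near the floor, at -0.05 to 1.13.

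Anks1b, which encodes a scaffold protein of the postsynaptic density, had 5 probe sets above the filter, all lower in mutants on the average. The one most like Sstr4 read 8.56, 7.79 and 7.77 in mutant kainate, against 9.85, 9.13 and 8.23 in control kainate. Its difference was -1.19 ± 0.26 (limma adjusted p = 0.247), and -1.33 ± 0.11 in the reduced fit. The other 4 ran from -0.91 to -0.39. For Smim19 the reduced fit gave -1.15 ± 0.17, for Kctd4, a BTB-domain protein gene, -0.66 ± 0.07 and for Ankrd63, an ankyrin repeat gene, -1.30 ± 0.17. Their limma adjusted p with all arrays was 0.247 each.

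**Figure D3:**
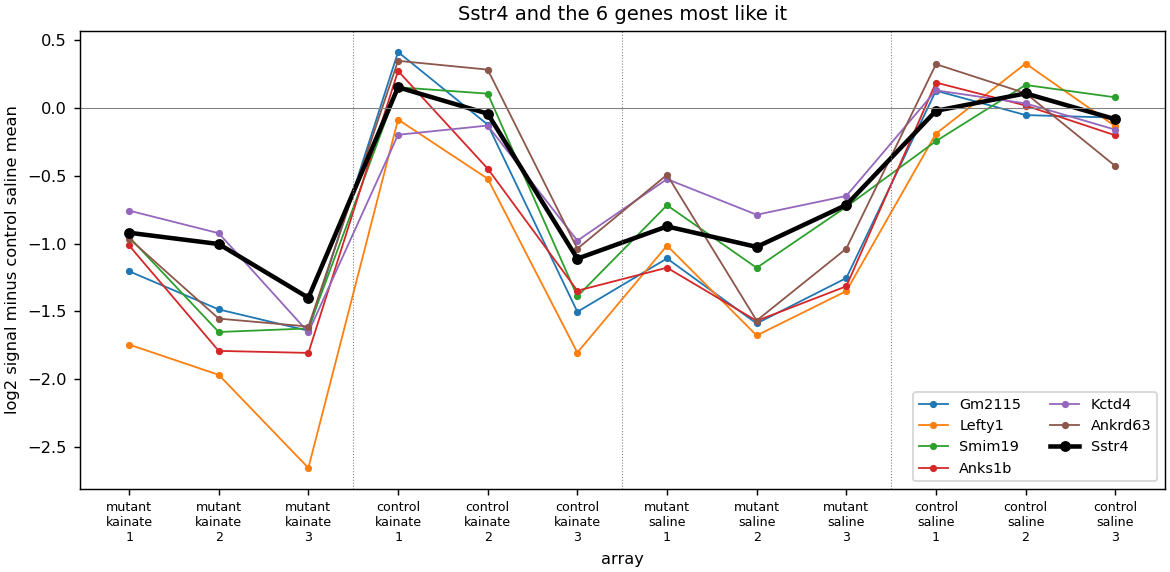
Log2 signal of Sstr4 (black) and of the 6 genes most like it, each minus its own control saline mean (y axis), on the 12 arrays (x axis, dotted lines between groups). All 7 genes drop together on the mutant arrays and on control kainate replicate 3, where Sstr4 reads 7.39. The 6 were picked by likeness to Sstr4 over these same arrays, so the shared course follows from the choice.

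Of the 6, RefSeq promoters were given for Gm2115, Anks1b and Ankrd63. None of the stretches given for them held TGACGTCA, and 1 of the 5 Anks1b starts held the core TGACG. Their coordinates span more bases than the stretch shown for Sstr4. The probe sets least like Sstr4 were Zfp112 (r = -0.806), Cltc (r = -0.788) and Ahnak (r = -0.779). They read 4.10 to 4.34, 3.97 to 4.12 and 4.05 to 4.47 over the arrays, at the dim level, so their opposite course is of small size.

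Downstream parts of the pathway were taken from lists, each gene by its brightest probe set. Of 20 channel genes linked to somatostatin receptors 7 were on the array and 6 above the filter. All 6 were lower in mutants on the average, none passed the limma test, and their median was -0.33. Over all 3541 probe sets the median was -0.01 and 51.1% were below 0. Kcnq5, an M-current subunit, was -0.59 ± 0.47 (adjusted p = 0.474), Kcnj9, a G-protein-gated potassium channel, -0.39 ± 0.17 (adjusted p = 0.261) and Kcnq3, the M-current partner subunit, -0.36 ± 0.16 (adjusted p = 0.261). On mutant kainate replicate 3 Kcnq5 read 4.99 against 7.01 to 8.32 on the other 11 arrays. Without both doubted arrays and with the batch term the channel median was -0.15.

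Kcnq3 had a second probe set, looked at after its values were seen. It read 8.19, 7.64 and 6.80 in mutant kainate, against 8.89, 8.80 and 8.30 in control kainate. It read 8.53, 8.14 and 8.47 in mutant saline, against 9.02, 9.13 and 8.79 in control saline. All 6 mutant arrays lay below the lowest control saline array, an order whose share over all probe sets was not counted. The difference was -0.86 ± 0.22 (limma adjusted p = 0.247) with all arrays and -0.77 ± 0.11 in the reduced fit. The brighter Kcnq3 probe set gave -0.34 ± 0.08 there, in the same direction.

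G protein and adenylyl cyclase genes did not pass in any genotype comparison. Of 54 listed, 18 were on the array and 10 above the filter, with a median of -0.16 on the average. The largest differences were those of Gng2, a G protein gamma subunit (-0.46 ± 0.35, limma adjusted p = 0.453), and the adenylyl cyclases Adcy1 (-0.46 ± 0.59, adjusted p = 0.642) and Adcy5 (-0.34 ± 0.30, adjusted p = 0.508). In the reduced fit the median was 0.01.

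Other receptors that couple to inhibitory G proteins did not follow Sstr4. Of 43 listed, 12 were on the array and 6 above the filter, and 0 passed between genotypes. Their median was 0.00, with 3 of 6 below 0. The muscarinic receptor gene Chrm2 was -0.27 ± 0.17 (limma adjusted p = 0.403), the nociceptin receptor gene Oprl1 -0.19 ± 0.12 (adjusted p = 0.387) and the neuropeptide Y receptor gene Npy1r 0.08 ± 0.10 (adjusted p = 0.660). The difference between Sstr4 and these receptors was not itself tested.

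Interneuron markers had 9 of 35 genes on the array and 6 above the filter, and 0 passed. All 6 were below 0 on the average, with a median of -0.26, against -0.01 in the reduced fit. Pvalb, the parvalbumin gene, was -0.53 ± 0.48 (limma adjusted p = 0.517), Nxph1 -0.32 ± 0.31 (adjusted p = 0.541) and Vip -0.32 ± 0.31 (adjusted p = 0.541). Gad2, Dlx2 and Erbb4 read under the dim level. The mean log2 level of the 6 ran from 5.30 to 7.20 in mutant kainate and 6.78 to 6.97 in control kainate. It ran from 6.47 to 6.89 in mutant saline and 6.51 to 6.90 in control saline.

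Of 20 CA1 pyramidal cell markers 5 were on the array and 2 above the filter, Lefty1 and Grp. Grp, the gastrin-releasing peptide gene, was -0.68 ± 0.25 (limma adjusted p = 0.247), and -0.47 ± 0.09 in the reduced fit. The mean of the pair ran from 6.21 to 7.37 in mutant kainate and 7.52 to 8.38 in control kainate. It ran from 7.47 to 7.59 in mutant saline and 8.23 to 8.66 in control saline. All 6 mutant arrays lay below 5 of the 6 control arrays on this mean, and how common that order is was not counted. The lowest control value of the mean, 7.52, was again that of control kainate replicate 3. Its part in the Sstr4 difference was not tested. In bulk tissue, fewer CA1 cells and less RNA per cell cannot be told apart. Spink8, Gpr161 and Crym, also CA1 markers, were under the filter.

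Of 22 genes listed as CA3 and CA2 markers 6 were above the filter (median -0.27, and -0.02 in the reduced fit), led by Crhbp at -0.44 ± 0.12 (limma adjusted p = 0.247). Of 21 dentate granule cell markers 4 were above it (median -0.08, and 0.08 in the reduced fit), led by Plk5 at -0.29 ± 0.17 (adjusted p = 0.358). None passed between genotypes with all arrays, and their differences were not tested against those of the CA1 markers. In the reduced fit Crhbp was -0.39 ± 0.09, beside -0.47 ± 0.09 for Grp. Which cells the Crhbp signal came from was not tested in this bulk tissue.

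Genes listed as induced by neuronal activity are set beside Sstr4 for kainate on the same arrays. The list was drawn up with earlier results of these data known. Its counts therefore describe these arrays and are no independent check. Of 42 listed, 12 were on the array and 8 above the filter, and all 8 were higher after kainate in both genotypes. Over all probe sets 46.88% were below 0 for kainate in controls and 73.45% in mutants. Jun was among the 8 at only 0.03 ± 0.06 in controls and 0.05 ± 0.06 in mutants. Arc, Nr4a3, Dusp1 and Trib1, also listed, were under the filter. In control mice 1 of the 8 passed, in mutant mice 1 and on the average 4. The shares called over all 3541 probe sets were 0.0282%, 0.0282% and 0.141%, in the same order. Kcnj2, an inward rectifier potassium channel gene, rose by 3.28 in control mice (limma adjusted p = 0.000649) and by 2.14 in mutant mice (adjusted p = 0.0270). Averaged over genotypes, Sik1, a salt-inducible kinase gene, rose by 1.75 ± 0.19 (adjusted p = 0.00704) and Egr3, an early growth response factor gene, by 1.64 ± 0.19 (adjusted p = 0.00704). Between genotypes the list had a median of -0.06 and 0 calls. Sik1 was -0.79 ± 0.19 (adjusted p = 0.247), and -0.89 ± 0.18 in the reduced fit.

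Gfap, the astrocyte filament gene, moved opposite to Sstr4. It read 12.82, 13.03 and 11.55 in mutant kainate, against 11.51, 11.53 and 12.95 in control kainate. It read 13.00, 12.47 and 12.23 in mutant saline, against 11.59, 10.75 and 11.13 in control saline. On control kainate replicate 3 both genes stood at mutant levels, while on mutant kainate replicate 3 Gfap was near the controls and Sstr4 was not. Its averaged difference was 0.94 ± 0.35 (limma adjusted p = 0.247), and 1.41 ± 0.17 in the reduced fit. With all arrays none of the 5 measured astrocyte genes, Gfap included, was called between genotypes. The list median was -0.07, and Gjb6, S100b, Sox9 and Acsbg1 read under the dim level. The mean log2 level of the 5 ran from 6.11 to 6.79 in mutant kainate, 5.85 to 7.03 in control kainate, 6.12 to 6.57 in mutant saline and 5.96 to 6.22 in control saline. Its part in the Sstr4 difference was not tested.

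Markers of the remaining cell types passed no genotype test with all arrays. The median of 4 oligodendrocyte genes was -0.18, that of 3 microglia genes 0.04, that of 2 endothelial and pericyte genes -0.12 and that of 7 choroid plexus and neighbouring region genes -0.20. Laptm5, a lysosomal membrane protein gene of microglia, was 0.25 ± 0.28 (limma adjusted p = 0.609), and 0.64 ± 0.10 in the reduced fit.

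**Figure D4:**
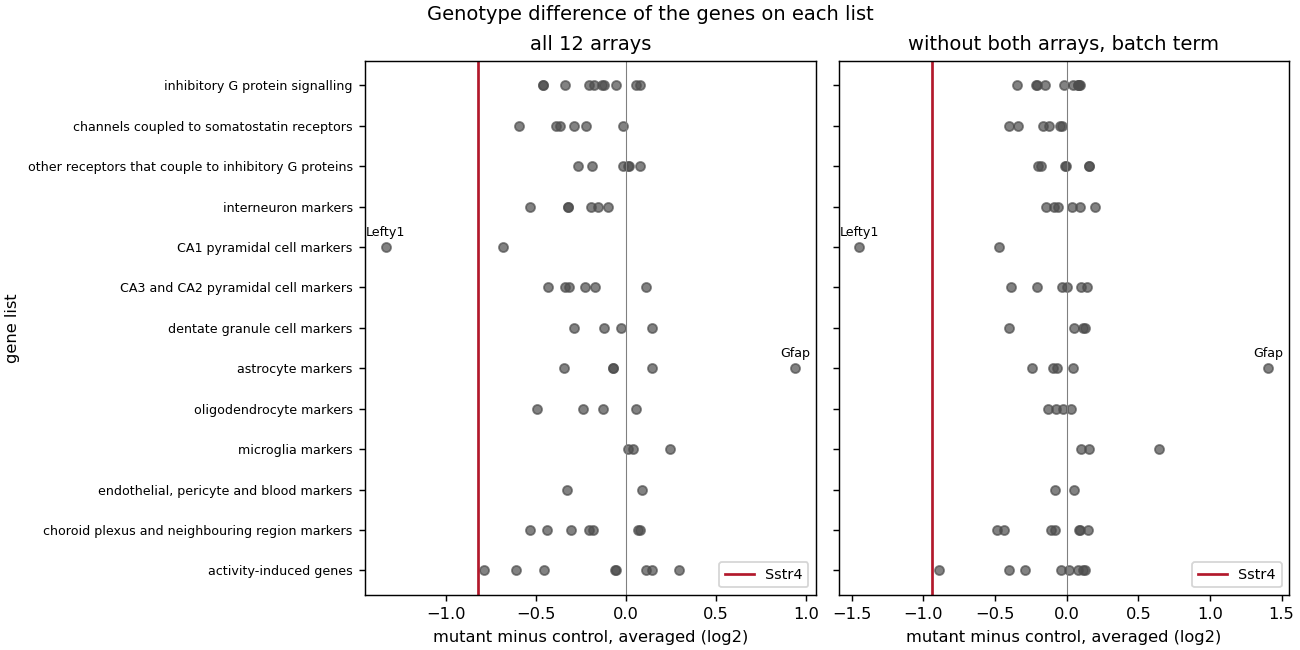
Averaged mutant minus control difference (log2, x axis) of each listed gene above the filter (points), by gene list (y axis), with all 12 arrays (left) and without both doubted arrays with the batch term (right); the red line is Sstr4, at -0.82 and -0.94. Lefty1 is the one listed gene below the Sstr4 line in each panel, and Gfap is the highest point.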

How the data were processed

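The authors deposited log2 values per probe set, made with GCRMA in R 2.4.1 per the submitters' processing notes. The GCRMA version is not given in the sources used here. GCRMA adjusts background by probe sequence and normalizes across arrays, so a weak array can shift a gene's value.

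The deposited log2 values were used as they stand. After 66 control probe sets were set aside, 3541 of 11868 had log2 of at least 4 on at least 3 of 12 arrays and were tested. Symbols came from the platform annotation, updated by Entrez gene through RefSeq (GRCm38.p6): 7717 probe sets had 1 symbol, 150 several and 4001 none. Those with several or none were tested and not named.

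Groups were compared with limma 3.58.1 in R 4.3.3 (lmFit, contrasts.fit, eBayes): 1 mean per group, 8 residual degrees of freedom, 7 comparisons, Benjamini-Hochberg adjustment over all 3541 probe sets and a threshold of 0.05. The reduced fit omits both doubted arrays, the third replicates of the kainate groups, and adds a term for replicate 1 against replicates 2 and 3. The fit was tested on simulated data. Figures were drawn with matplotlib 3.10.9.

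The gene and the 14 lists (372 genes, 64 above the filter beside Sstr4) were chosen with earlier results of these data known. Named genes were drawn from the list members called, or among the 3 largest differences of their list, in a comparison, from all somatostatin genes, the 5 chromosomal neighbours on each side, and the 6 probe sets most and 3 least correlated with Sstr4. The second Kcnq3 probe set, the other Anks1b probe sets and list members named only as dim are outside this rule.

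Replicate numbers are shared between groups. Deviations of same-numbered arrays from their group means correlated at 0.470 to 0.855 for genotype after saline, 0.190 to 0.578 for genotype after kainate, 0.383 to 0.627 for kainate in controls and -0.078 to 0.479 for kainate in mutants. Replicate 1 gave the highest value in each comparison, and arrays with different numbers were not compared. Pairing by number therefore cannot be told apart from the batch of replicate 1, and no label states it.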

Additional observations from a re-analysis of the deposited data

How the results depend on the processing

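The genotype differences of Sstr4 stayed below 0 in every alternative run. The standard error of the averaged difference was 0.20 with all 12 arrays, 0.10 without control kainate replicate 3 and 0.08 without both doubted arrays. Leaving out 1 array at a time gave -0.95 to -0.79 after saline, -1.16 to -0.53 after kainate and -1.02 to -0.70 on the average. The same gave -0.58 to 0.05 for kainate in controls, -0.33 to -0.09 for kainate in mutants, -0.41 to -0.09 for kainate averaged and -0.29 to 0.34 for the interaction. Kainate in controls, -0.33 with all arrays, was 0.0541 without both doubted arrays, 0.0459 with the batch term added and 0.173 within replicate 1 arrays. With the replicate block the Sstr4 values were as in the unblocked fit (-0.871 after saline), since the groups are balanced.

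Counts of probe sets called depended on the arrays used. Without both doubted arrays they were 1 for genotype after saline, 5 for genotype averaged, 5 for kainate in controls, 3 in mutants and 9 averaged. With the batch term added they were 6, 4 (genotype after kainate), 29, 7, 5 and 20. Without control kainate replicate 3 and with the batch term, chosen after seeing the data, they were 4 for genotype after saline, 3 after kainate, 13 averaged and 2 for kainate in controls. For kainate in controls the count was 3 with the filter at log2 5, 3 with the replicate block, 2 with the batch term, 2 after quantile normalization and 6 with only the arrays compared, against 1. For kainate in mutants it was 0 with no filter, 0 with only the arrays compared, 2 with the replicate block, 2 with the batch term and 4 after quantile normalization, against 1. Kainate averaged gave 9 after quantile normalization, against 5. Leaving out 1 array gave 0 to 15 for genotype after kainate, 0 to 2 for genotype averaged, 1 to 4 for kainate in controls, 0 to 67 in mutants and 5 to 56 averaged. Mutant kainate replicate 1 gave the highest of these in all but genotype averaged, where control kainate replicate 3 did. For the averaged genotype difference, Gm2115, Lefty1, Smim19, Anks1b, Kctd4, Ankrd63 and Gfap passed only in fits that leave out control kainate replicate 3, an omission that depends on the outcome. Laptm5 and the second Kcnq3 probe set also passed in the reduced fit, which makes the same omission. Of the 6 genes most like Sstr4, 4 were shared with batch means taken out, 4 without the doubted arrays, 5 on deviations from group means, and 0 on such deviations without the doubted arrays. The cause of these changes was not tested.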
